A study of Mus musculus with 12 samples.

Results

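Cytosolic heat shock genes were examined in the left ventricle of mice in which the cardiomyocyte gene for tetrahydrobiopterin (BH4) synthesis had been deleted. The 10 genes were the heat shock transcription factor Hsf1, the HSP70 genes Hspa1a, Hspa1b and Hspa8, the HSP90 genes Hsp90aa1 and Hsp90ab1, the HSP110 gene Hsph1, the J-domain (HSP40) gene Dnajb1, and the small heat shock genes Hspb1 and Hspb7. They were chosen by symbol, as the rows whose Ensembl identifier carries that symbol in GENCODE M21, and all 10 were found among the 26921 genes of the count table and among the 11225 genes that passed the filter on low counts (a cpm, the count scaled to library size, above 3 in at least 6 libraries).

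RNA-seq libraries came from 16-week-old mice, 6 WT and 6 cmGch1 KO, and each animal gave 1 library. WT mice carried Gch1 alleles with LoxP sites around exons and no Cre, and cmGch1 KO littermates carried the same floxed alleles with 1 allele of Cre driven in cardiomyocytes by the α-MHC promoter. Gch1 encodes GTP cyclohydrolase 1, the enzyme that starts BH4 synthesis, and cells without Cre keep it. Because the controls lacked Cre, the loss of Gch1 and the presence of Cre cannot be told apart in these libraries.

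Heat shock proteins are chaperones that bind unfolded or newly made proteins. HSP70 proteins take up clients brought by J-domain proteins and release them with the help of nucleotide exchange factors such as HSP110, HSP90 matures kinases and steroid receptors, and small heat shock proteins hold partly unfolded proteins, in the heart mainly those of the sarcomere. Unfolded protein frees HSF1 from these chaperones, and the HSF1 trimer then binds heat shock elements, arrays of inverted GAA units, and raises the transcription of the inducible members.

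The upstream sequences of 6 members were at hand in RefSeq (build GRCm38.p6), namely those of Hspa1a, Hspa1b, Hsph1, Dnajb1, Hspb1 and Hspb7. Those of 4 members are printed below because they hold the closest pair of copies (Hspa1a and Hspa1b) and the 2 small heat shock genes. Each is the 250 bases before the annotated start, 5′ to 3′ on the strand of the gene, with pairs of inverted GAA units (GAANNTTC) in capitals.

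Hspa1a (minus strand, chr17:34972157-34972406): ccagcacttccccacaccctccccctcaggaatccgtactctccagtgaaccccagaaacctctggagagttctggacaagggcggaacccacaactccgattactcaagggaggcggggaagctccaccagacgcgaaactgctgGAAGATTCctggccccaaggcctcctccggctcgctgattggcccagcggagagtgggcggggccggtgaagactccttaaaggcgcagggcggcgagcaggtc

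Hspa1b (minus strand, chr17:34959239-34959488): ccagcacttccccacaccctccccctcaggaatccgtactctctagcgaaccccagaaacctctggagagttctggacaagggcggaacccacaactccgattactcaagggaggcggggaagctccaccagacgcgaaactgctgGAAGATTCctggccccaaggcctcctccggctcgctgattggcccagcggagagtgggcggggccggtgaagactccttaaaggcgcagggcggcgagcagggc

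Hspb1 (plus strand, chr5:135887669-135887918): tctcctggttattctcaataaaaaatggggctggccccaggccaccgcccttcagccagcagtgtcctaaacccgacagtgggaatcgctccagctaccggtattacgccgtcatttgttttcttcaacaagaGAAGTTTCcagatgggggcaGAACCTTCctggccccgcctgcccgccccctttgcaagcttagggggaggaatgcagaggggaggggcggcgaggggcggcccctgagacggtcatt

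Hspb7 (plus strand, chr4:141420529-141420778): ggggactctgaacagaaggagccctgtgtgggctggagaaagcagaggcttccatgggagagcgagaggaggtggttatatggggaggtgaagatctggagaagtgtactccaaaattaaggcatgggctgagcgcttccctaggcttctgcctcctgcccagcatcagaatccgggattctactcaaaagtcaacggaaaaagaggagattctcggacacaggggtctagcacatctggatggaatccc

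The Hspa1a and Hspa1b sequences were identical at 247 of the 250 bases (98.8%), and each held 1 inward pair of units (GAANNTTC) starting at position -104, where -1 is the base before the start. Hspb1 held 2 such pairs, at -117 and -97. Hsph1 held 1 outward pair (TTCNNGAA), at -54 or -33 depending on which of its annotated starts is used, whereas Hspb7 and Dnajb1 held neither arrangement. Over the 32851 windows of the table, 6.69% held the inward pair, 7.17% the outward pair and 12.8% either of them, and the 2 arrangements read the same on both strands. None of the 6 members held an unbroken array of 3 units (GAANNTTCNNGAA or its reverse complement, which can overlap the pairs), found in 0.466% of windows. None held the letters TATAAA, sought on the strand of the gene only and found in 7.59% of windows. These matches describe letters only, and binding was not tested.

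Totals ranged from 19921398 to 37917806 counts per library. Gch1 averaged 10.7 ± 0.974 cpm in WT libraries and 5.48 ± 0.855 cpm in cmGch1 KO libraries (SD, n = 6 each), without overlap (two-sided exact permutation p = 0.00216, the smallest that 6 against 6 allow). cmGch1 KO replicates 2 and 3 stood apart, with Xist at 86.7 and 99.1 cpm, 0 counts of 4 Y-linked genes and 14.9% and 16.1% of counts from mitochondrial genes, against 18.3% to 22.9% in the rest. In those libraries Xist did not exceed 0.234 cpm, and Ddx3y, Eif2s3y, Kdm5d and Uty, which are Y-linked, summed to 167 to 192 cpm. The labels give no sex. No WT library had high Xist, so sex-linked expression was not balanced between the genotypes. Across all tested genes, 50 were lower (0.445%) and 76 were higher (0.677%) in cmGch1 KO hearts at an FDR under 0.05 (1.12% in either direction), against 36 lower and 116 higher without TMM normalization. Of the tested genes 11.5% had an unadjusted p under 0.05, and 1.87% had groups that did not overlap in cpm.

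Against this background, 0 of the 10 heat shock genes passed an FDR of 0.05 (quasi-likelihood test of edgeR, adjusted by the Benjamini-Hochberg method), 0 had an unadjusted p under 0.05, and 0 had groups that did not overlap. DESeq2 also called 0 of them. In the exact permutation test on cpm the lowest p among the 10 was 0.0606, for Hspb7. The log2 fold change was below 0 for 6 members and above 0 for 4, with a median of -0.07 beside -0.01 for all tested genes. In bulk tissue, fewer cells of a type and less RNA per cell cannot be told apart.

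**Figure D1:**
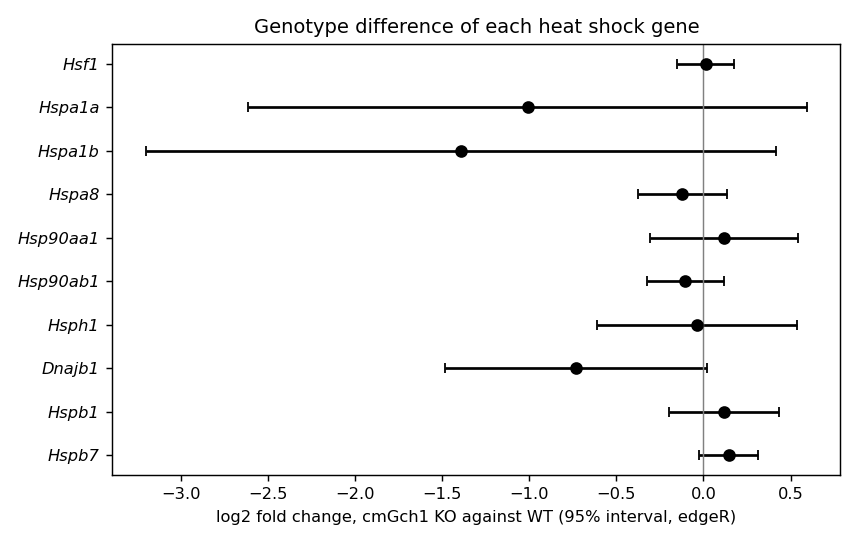
Log2 fold change of each member in cmGch1 KO against WT hearts (x axis, log2 scale), as points with the 95% interval from edgeR. Every interval includes 0, and those of Hspa1a and Hspa1b are the widest.

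Hsf1, which encodes the transcription factor that drives the response, differed little between the genotypes. It ranged from 34.0 to 40.1 cpm in WT hearts (median 37.1) and from 32.2 to 40.8 cpm in cmGch1 KO hearts (median 38.1). The ranges overlapped almost entirely, and the highest of the 12 libraries was 1.27 times the lowest. Its log2 fold change was 0.01 (95% interval -0.15 to 0.18), so that the interval of the fold runs from 0.902 to 1.13 (edgeR, adjusted p = 0.977). Its sign turned in 7 of the 21 alternatives tried.

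Hspa1a and Hspa1b, the stress-inducible HSP70 genes, each consist of 1 exon and lie side by side on chromosome 17, at 34969190 to 34972156 and at 34956436 to 34959238. Their transcripts match at 99.2% of 2201 aligned bases, so reads could be assigned to either copy and the split between them is uncertain. Hspa1b was given from 40.5% (exact Clopper-Pearson 95% interval 37.5% to 43.6%) of the counts of the pair in cmGch1 KO replicate 4 to 67.5% (63.6% to 71.3%) in cmGch1 KO replicate 2, intervals that cover counting error only. A gene on the opposite strand, Gm20481, overlaps 2225 bases of Hspa1a and has no row in the count table.

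The summed level of the pair differed more between animals of 1 genotype than between the genotypes. In WT hearts it was 8.28, 6.52, 100.3, 60.6, 8.50 and 125 cpm in replicates 1 to 6. In cmGch1 KO hearts it was 3.64, 27.3, 3.79, 30.3, 12.1 and 51.8 cpm. WT replicates 3, 4 and 6 were above every cmGch1 KO library and the other 3 WT libraries lay within the cmGch1 KO range, so the groups overlapped. The highest library was 19.1 times the lowest in WT and 14.2 times in cmGch1 KO hearts. The mean of the pair was 51.5 ± 52.1 cpm for WT against 21.5 ± 18.7 cpm for cmGch1 KO hearts (SD, n = 6 each). The difference in means was below the SD among WT animals and above that among cmGch1 KO animals. The two-sided exact permutation test of this difference gave p = 0.234.

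Taken singly, Hspa1a ranged from 3.32 to 45.2 cpm in WT (median 13.2) and from 1.59 to 21.02 cpm in cmGch1 KO hearts (median 7.83), with a log2 fold change of -1.01 (SE 0.75, edgeR, adjusted p = 0.702). Hspa1b ranged from 2.87 to 79.4 cpm in WT (median 21.8) and from 2.04 to 30.8 cpm in cmGch1 KO hearts (median 8.79), with a log2 fold change of -1.39 (SE 0.84, edgeR, adjusted p = 0.596). The 95% interval of the fold of Hspa1b runs from 0.109 to 1.34, so that neither a large fall nor a small rise lies outside it. Single libraries moved both values. Hspa1a had -0.59 without WT replicate 6, -0.66 without WT replicate 3 and -1.41 without cmGch1 KO replicate 6. Hspa1b had -0.87 without WT replicate 6 and -1.97 without cmGch1 KO replicate 6 (edgeR, adjusted p = 0.404), and on the deposited normalized values it was -0.80.

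The spread of this pair stood near the top of the whole table. The SD of log2 cpm within genotype was 1.90 for Hspa1b, rank 7 of the 11225 tested genes, and 1.69 for Hspa1a, rank 10, while the median over all tested genes was 0.19. The same SD was 0.71 for Dnajb1 (rank 72), 0.56 for Hsph1 (rank 179) and 0.40 for Hsp90aa1 (rank 572). By contrast Hsf1 (0.12) and Hspb7 (0.12) varied less than the median gene.

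**Figure D2:**
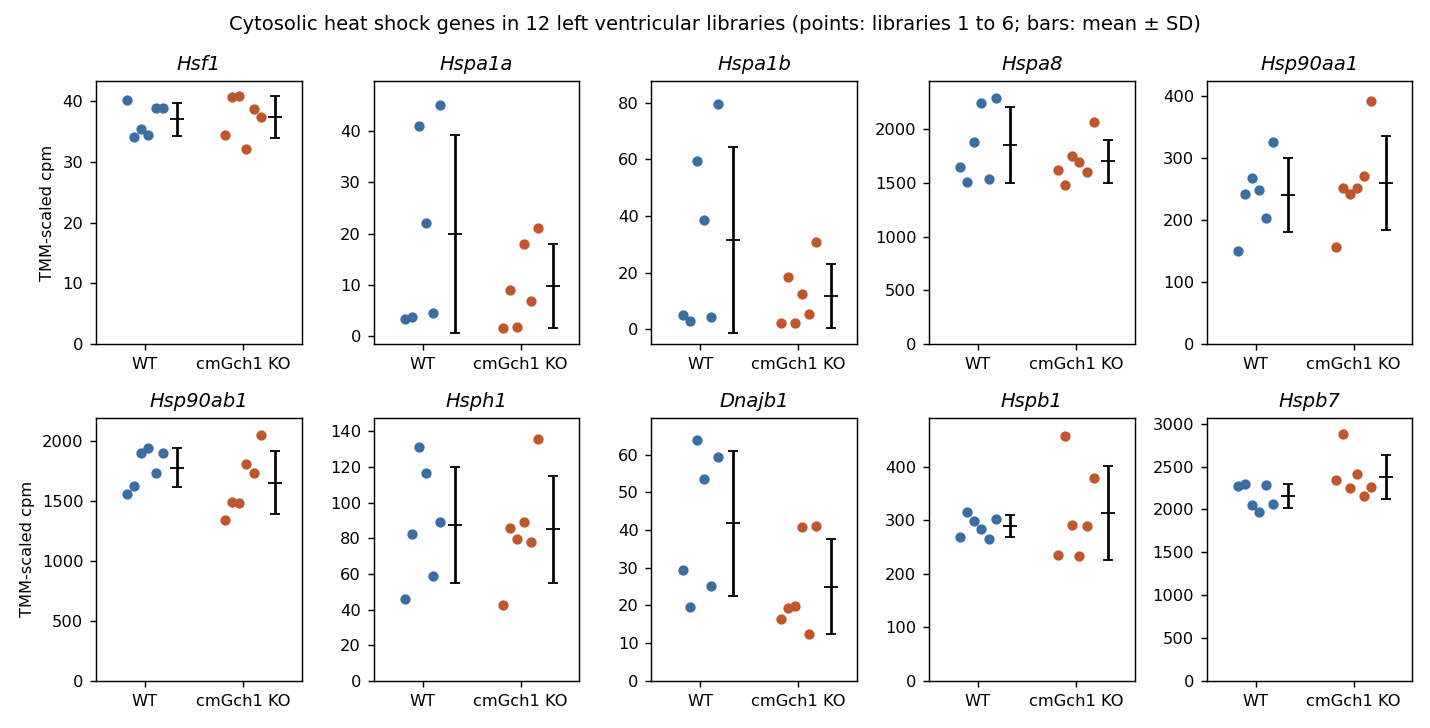
TMM-scaled cpm (y axis, linear, a separate scale for each gene) of the 10 members in WT (blue) and cmGch1 KO (orange) hearts, with points for libraries 1 to 6 from left to right and bars for the mean ± SD. Hspa1a and Hspa1b spread over more than 10 times within each genotype, whereas Hsf1 and Hspb7 stay in narrow bands.

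Dnajb1, the J-domain partner of inducible HSP70, lies on chromosome 8 from 83608193 to 83612653 and came nearest to a lower level among the inducible members. It was at 29.3, 19.7, 63.9, 53.4, 25.1 and 59.4 cpm in WT replicates 1 to 6. In cmGch1 KO hearts it was at 16.5, 19.4, 19.7, 40.9, 12.5 and 41.1 cpm. All 6 cmGch1 KO libraries were below the WT median of 41.4 cpm, but the groups overlapped, and WT replicates 3, 4 and 6, which had the most Hspa1a and Hspa1b, were again the highest 3 libraries. Dnajb1 had a log2 fold change of -0.73 (SE 0.35, 95% interval -1.48 to 0.02, edgeR, unadjusted p = 0.0549, adjusted p = 0.453), and the exact permutation test gave p = 0.106. The alternatives moved it between -0.94 and -0.57, with an adjusted p (edgeR) of 0.0811 or more.

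Hsph1 encodes the HSP110 nucleotide exchange factor of HSP70. It ranged from 46.0 to 131 cpm in WT hearts (median 85.9) and from 42.4 to 136 cpm in cmGch1 KO hearts (median 82.6). The 2 ranges nearly coincided. Hsph1 had a log2 fold change of -0.04 (95% interval -0.61 to 0.53, edgeR, adjusted p = 0.982), and its sign turned in 4 of the 21 alternatives.

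Hspa8, the constitutive HSP70 that serves unstressed cells, was far more abundant. It ranged from 1509 to 2293 cpm in WT (median 1770.2) and from 1483 to 2066 cpm in cmGch1 KO hearts (median 1660), and only WT replicates 4 and 6 lay above the cmGch1 KO range. Its log2 fold change was -0.12 (95% interval -0.38 to 0.13, edgeR, adjusted p = 0.801). It has 7 near-identical copies in the annotation, of which the 2 with a row in the count table held 0.239% as many counts.

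The HSP90 genes are the inducible Hsp90aa1 and the constitutive Hsp90ab1. Hsp90aa1 ranged from 151 to 326 cpm in WT (median 245) and from 156 to 392 cpm in cmGch1 KO hearts (median 251). Its log2 fold change was 0.12 (95% interval -0.31 to 0.54, edgeR, adjusted p = 0.907), and it was -0.04 without cmGch1 KO replicate 6, the library with the highest value. Hsp90ab1 ranged from 1558 to 1942 cpm in WT (median 1817) and from 1345 to 2054 cpm in cmGch1 KO hearts (median 1614). In this gene 5 of 6 cmGch1 KO libraries were below the WT median, 3 of them below every WT library, and replicate 6 was above every WT library. The log2 fold change of Hsp90ab1 was -0.10 (95% interval -0.32 to 0.12, edgeR, adjusted p = 0.805). The 3 near-identical copies of Hsp90aa1 held 1.59% as many counts as the gene.

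Hspb1 and Hspb7 encode small heat shock proteins, and HSPB7 is found mainly in heart and skeletal muscle, where it binds filamin C. Hspb1 ranged from 265 to 316 cpm in WT (median 291) and from 233 to 457 cpm in cmGch1 KO hearts (median 289.6). The cmGch1 KO libraries lay on both sides of the narrow WT range, 2 above it and 2 below it. The log2 fold change of Hspb1 was 0.12 (95% interval -0.20 to 0.43, edgeR, adjusted p = 0.855), and it was -0.03 without cmGch1 KO replicates 2 and 3.

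Hspb7 ranged from 1969 to 2292 cpm in WT (median 2168) and from 2159 to 2877 cpm in cmGch1 KO hearts (median 2297). In this gene 5 of 6 cmGch1 KO libraries were above the WT median and 3 were above every WT library, with overlap between the groups. The log2 fold change was 0.14 (SE 0.08, 95% interval -0.03 to 0.31, edgeR, unadjusted p = 0.0893, adjusted p = 0.540), and it was 0.08 without cmGch1 KO replicate 2, the highest library. Its 95% interval covers folds from 0.983 to 1.24.

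The cpm was divided by exon length so that genes could be compared with each other. By this measure the muscle and constitutive members led the order of levels. Exon length was that of all annotated exons of a gene merged, 4301 bases over 10 transcripts for Hspa8 and 2769 bases over 1 for Hspb7. The order rests on this choice, and lengths of single transcripts were not tried. Hspb7 came first at 778 ± 51.6 cpm per kb (SD, n = 6) in WT hearts, followed by Hsp90ab1 at 592 ± 54.0, Hspa8 at 431 ± 81.2 and Hspb1 at 280.4 ± 19.6 cpm per kb. Hsp90aa1 was at 61.0 ± 15.1 cpm per kb, and Hsph1 (12.05 ± 4.50), Dnajb1 (13.0 ± 6.01), Hspa1b (11.3 ± 11.7), Hsf1 (5.21 ± 0.374) and Hspa1a (6.72 ± 6.52) were lower. Ordered by the mean over all 12 libraries, Hspb7 was above Hsp90ab1 without overlap, as were Hspb1 above Hsp90aa1 and Hsp90aa1 above Hsph1. All other neighbours in that order (Hsp90ab1, Hspa8 and Hspb1, and then Hsph1, Dnajb1, Hspa1b, Hsf1 and Hspa1a) overlapped in their ranges.

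Most of the inducible members, and with them the constitutive Hsp90ab1, varied together from library to library, and Hspa8 did so in part. Pearson correlations were computed between log2 cpm of 2 members over the 12 libraries after subtracting genotype means, with 100000 permutations within genotype and Benjamini-Hochberg adjustment over the 45 pairs. By this test 16 pairs had an adjusted p under 0.05, 15 positive and 1 negative, and 14 pairs did so by Spearman's rho. Of the 10 pairs among Hspa1a, Hspa1b, Hsph1, Dnajb1 and Hsp90aa1, 8 passed. Only 1 of these, Hsp90aa1 with Hsph1, included neither Hspa1a nor Hspa1b, copies that share reads. The count therefore holds relations of those copies under both names. Dnajb1 did not pass with Hsph1 (r = 0.66, rho = 0.78, permutation p = 0.0310 and 0.00633, adjusted p = 0.0774 for r) or with Hsp90aa1 (r = 0.55, rho = 0.47, permutation p = 0.0836 and 0.143, adjusted p = 0.171 for r). Of the 15 positive pairs 7 included Hspa8 or Hsp90ab1. Hsp90ab1 passed with each of these inducible members, but Hspa8 passed with Dnajb1 only. With Hspa1a, Hspa1b, Hsp90aa1 and Hsph1, Hspa8 had r of 0.58 to 0.72 and an adjusted permutation p of 0.0765 to 0.137. In the 10 libraries without cmGch1 KO replicates 2 and 3, 13 of the 16 pairs also passed. Hspa8 with Hsp90ab1, Hspa8 with Hspb7 and Hsp90ab1 with Dnajb1 did not, while Hspa8 with Hspa1b passed only there. Both genes of a pair share each library's normalization factor. All 16 kept their sign without the 2 libraries farthest from the median of the first gene, with an absolute r of at least 0.62.

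Hspa1b and Dnajb1 had r = 0.83 (rho = 0.80, permutation p = 0.00698 and 0.00382, adjusted p = 0.0289 for r), and r was 0.78 without the 2 farthest libraries. Hsp90aa1 and Hsph1 had r = 0.88 (rho = 0.80, permutation p = 0.00213 and 0.00572, adjusted p = 0.0160 for r), which fell to 0.68 without the 2 farthest libraries. Hsp90aa1 and Hsp90ab1 had r = 0.83 (rho = 0.76, permutation p = 0.00101 and 0.00836, adjusted p = 0.0160 for r), and 0.71 without the 2 farthest. Hspa1a and Hspa1b had r = 0.96 (rho = 0.87, permutation p = 0.00022 and 0.00086), but these copies share reads. With the pair summed, a choice made after the data were seen, 4 of 8 relations passed, those with Dnajb1 (r = 0.83, rho = 0.77), Hsp90ab1 (r = 0.79, rho = 0.78), Hsph1 (r = 0.78, rho = 0.78) and Hsp90aa1 (r = 0.75, rho = 0.75), each with an adjusted permutation p of 0.0135 for r and 0.0166 for rho. The summed values of the 12 libraries formed a gradual series from 3.64 to 125 cpm rather than separate clusters, although in WT alone no library lay between 8.50 and 60.6 cpm.

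Hsf1, Hspb1 and Hspb7 passed with none of these genes in the positive direction. Hsf1 and Hspb1 were in none of the 16 pairs, and the largest absolute r of Hsf1 with any member was 0.45, with Hspb1. Hspb7 was in the negative pair, with Hspa8 (r = -0.67, rho = -0.70, permutation p = 0.0152 and 0.0123, adjusted p = 0.0457 for r), and r was -0.62 without the 2 farthest libraries. Hspb1, whose upstream window holds 2 inward pairs of GAA units, did not pass with the inducible members. Its r with them was above 0, from 0.06 (Dnajb1) to 0.52 (Hsp90aa1). With Hsp90aa1 its rho was 0.66 (permutation p = 0.0256, adjusted p = 0.0679 for rho). Dnajb1, whose windows hold none, passed with Hspa1a and Hspa1b. The correlations of Hspb1 and of Dnajb1 were not tested against each other. Only 6 of the 10 members had a window, and a link between these letters and the correlations was not tested.

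These 3 genes were also looked at within each genotype, a choice made after the pooled values were seen. Within WT, Hspb7 ran against Hspa1b (r = -0.92, rho = -0.77, exact permutation p = 0.0889 and 0.103, n = 6), and within cmGch1 KO it had r = 0.39 and rho = 0.31 (exact permutation p = 0.510 and 0.564, n = 6). For Hspb7 with Hspa8, r was -0.92 and rho -0.83 within WT (exact permutation p = 0.0347 and 0.0583, n = 6) and r was -0.55 and rho -0.31 within cmGch1 KO (exact permutation p = 0.253 and 0.564, n = 6). Hsf1 with Hspb1 had r = -0.62 and rho = -0.49 within WT (exact permutation p = 0.175 and 0.356, n = 6) and r = 0.71 and rho = 0.71 within cmGch1 KO (exact permutation p = 0.128 and 0.136, n = 6), so the pooled r of 0.45 combines opposite signs. Of the 90 relations within a genotype (45 pairs in each), 0 had an adjusted p under 0.05, and the differences between the genotypes were not tested.

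**Figure D3:**
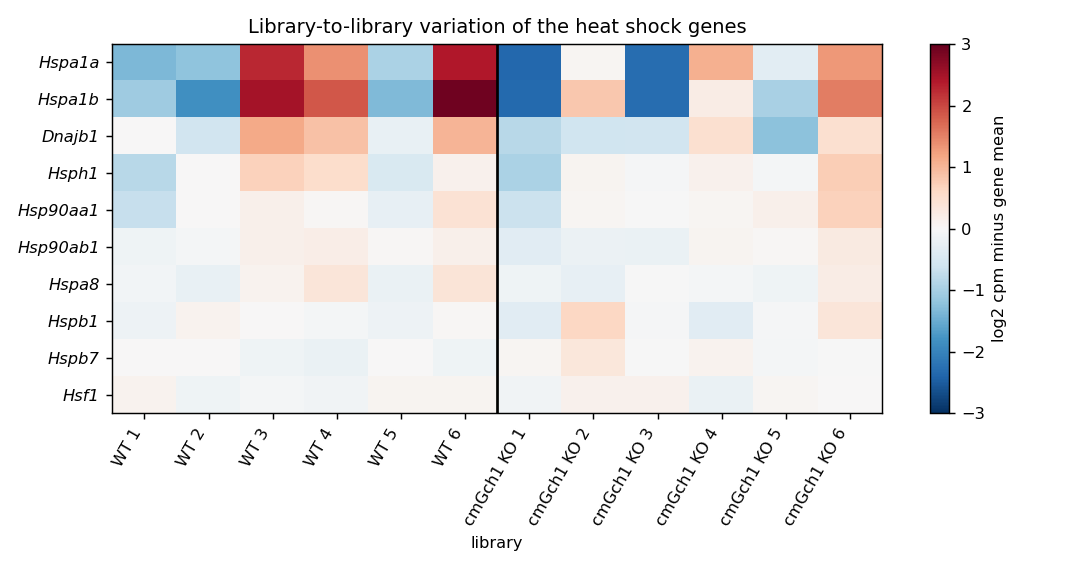
Log2 cpm minus the mean of each gene (colour, log2 scale) for the 10 members (rows) in the 12 libraries (columns, WT left of the line). WT replicates 3, 4 and 6 and cmGch1 KO replicates 4 and 6 are above the mean in Hspa1a, Hspa1b, Dnajb1 and Hsph1. WT replicate 5 and cmGch1 KO replicates 1, 3 and 5 are below it in each.

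**Figure D4:**
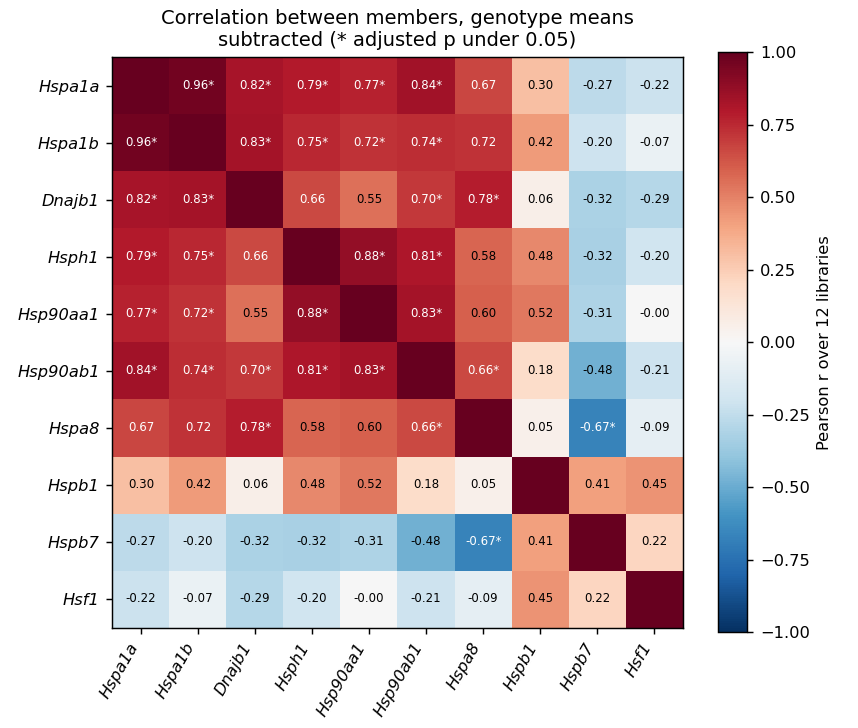
Pearson r between pairs of members over 12 libraries after subtracting genotype means (colour and number), with an asterisk for an adjusted permutation p under 0.05. The 15 positive pairs that passed lie among Hspa1a, Hspa1b, Dnajb1, Hsph1, Hsp90aa1, Hsp90ab1 and Hspa8, and the negative one is Hspa8 with Hspb7.

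Because Hspa1b varied so widely, it was also set beside 13 measures of each library, a family chosen after the data were seen. The mean log2 cpm of the 21 co-chaperone genes followed it (r = 0.80, rho = 0.83, permutation p = 0.00700 and 0.00383, adjusted p = 0.0484 and 0.0498, r = 0.76 without the 2 farthest libraries). The mean of the other J-domain genes followed it by r (r = 0.71, rho = 0.73, permutation p = 0.00745 and 0.00934, adjusted p = 0.0484 and 0.0607, r = 0.66 without the 2 farthest). The other 11 measures did not pass, with adjusted p of 0.659 or more for r and 0.469 or more for rho. Among them, clock genes had r = 0.47 and rho = 0.48 (permutation p = 0.152 and 0.108) and immediate early genes had r = 0.06 and rho = 0.25 (permutation p = 0.877 and 0.483). Chaperones of other compartments did not follow Hspa1b closely, with r = 0.08 and rho = 0.11 in the endoplasmic reticulum (permutation p = 0.778 and 0.706) and r = 0.16 and rho = 0.13 in mitochondria (permutation p = 0.679 and 0.752). The total count had r = -0.08 and rho = -0.12 (permutation p = 0.814 and 0.719).

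The genes most like the mean of Hspa1a, Hspa1b, Hsph1, Dnajb1 and Hsp90aa1, by Pearson r of log2 cpm over the 12 libraries with genotype means subtracted, were Gm15542 (0.94), the potassium channel gene Kcna5 (0.93), Cdc42ep4 (0.93), the alkaline ceramidase gene Acer2 (0.92) and the kinase gene Map3k6 (0.92). Those most like Hspb7 were Kremen1 (0.91), the retinaldehyde dehydrogenase gene Aldh1a2 (0.90), Maea (0.90), Rcsd1 (0.89) and CAAA01118383.1 (0.87). These are the highest of all tested genes outside the members and are given as a description. None of the 10 was called between the genotypes.

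The remaining chaperone system gave 0 calls in either direction by the same edgeR test, which called 1.12% of all tested genes, and DESeq2 called 1 gene (Fkbp4). This system covers 3 genes of an HSF list (the factors Hsf2 and Hsf4 and the HSF1-binding Hsbp1), 6 other HSP70 and HSP110 genes and 10 other J-domain genes. It also covers 5 other small heat shock genes, 21 co-chaperones, 8 subunits of the TRiC chaperonin, 16 endoplasmic reticulum chaperones and 8 mitochondrial chaperones. At an unadjusted p under 0.05 (edgeR) 1 of these 77 genes was higher (Hspa1l) and 4 were lower (Hspa12a, Fkbp4, Herpud1 and Dnajb9, the last with a log2 fold change of -0.16 and named after its value was seen), beside 7.01% of all tested genes higher and 4.51% lower. The median log2 fold changes of the 8 classes ran from -0.08 for mitochondrial chaperones to 0.09 for endoplasmic reticulum chaperones.

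In the HSF list, the factor gene Hsf2 was at 14.9 ± 0.860 cpm in WT libraries against 16.2 ± 0.951 cpm in cmGch1 KO libraries (SD, n = 6 each), with a log2 fold change of 0.12. Hsbp1, whose product binds the HSF1 trimer, had -0.12. Fkbp4, a co-chaperone of HSP90 in steroid receptor complexes, had the lowest p of all 77. It ranged from 478 to 591 cpm in WT (median 541) and from 418 to 486 cpm in cmGch1 KO hearts (median 445), ranges that barely overlapped. Its log2 fold change was -0.27 (SE 0.07, edgeR, adjusted p = 0.104), and DESeq2 gave an adjusted p of 0.00607. Bag3, the nucleotide exchange factor of chaperone-assisted autophagy, had a log2 fold change of -0.14 (SE 0.15, edgeR, adjusted p = 0.822), and Fkbp5, a target of the glucocorticoid receptor, had -0.26 (SE 0.31, edgeR, adjusted p = 0.852).

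In the other HSP70 and HSP110 genes, Hspa12a had a log2 fold change of -0.38 (edgeR, unadjusted p = 0.0179, adjusted p = 0.275), Hspa1l had 0.31 (edgeR, unadjusted p = 0.0423, adjusted p = 0.406) and Hspa4l had 0.21. Hspa1l was the gene counted as higher at an unadjusted p under 0.05, at 3.95 ± 0.614 cpm in WT libraries against 4.87 ± 0.847 cpm in cmGch1 KO libraries (SD, n = 6 each). Dnaja1, an inducible J-domain gene, ranged from 87.5 to 192 cpm in WT (median 149) and from 67.3 to 196 cpm in cmGch1 KO hearts (median 92.0), with a log2 fold change of -0.41 (SE 0.27, edgeR, adjusted p = 0.636). The highest of the 12 libraries in Dnaja1 was a cmGch1 KO library, so the groups overlapped. Dnajb5 and Dnaja4 had log2 fold changes of -0.20 and 0.15.

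Cryab, which encodes αB-crystallin, the abundant small heat shock protein of heart muscle, was at 1194 ± 82.9 cpm in WT libraries against 1294 ± 117 cpm in cmGch1 KO libraries (SD, n = 6 each) (log2 fold change 0.12, edgeR, adjusted p = 0.632). Hspb3 had a log2 fold change of 0.32 (edgeR, adjusted p = 0.491), and the TRiC subunit gene Cct3 had 0.16. Of the endoplasmic reticulum genes, Hsp90b1, which encodes GRP94, had a log2 fold change of 0.22 (edgeR, adjusted p = 0.566), and Herpud1, which acts in degradation from the endoplasmic reticulum, had -0.28 (edgeR, unadjusted p = 0.0347, adjusted p = 0.372). Hspe1, the mitochondrial HSP10 gene, had -0.26 (edgeR, adjusted p = 0.706), and Grpel1, the exchange factor of mitochondrial HSP70, had -0.17.

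**Figure D5:**
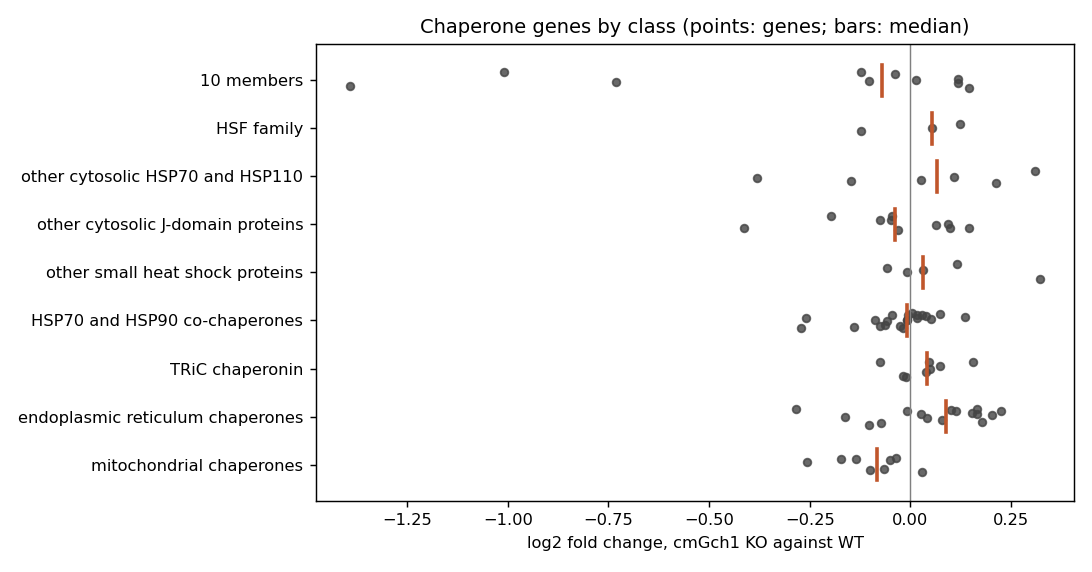
Log2 fold change in cmGch1 KO against WT hearts (x axis, log2 scale) of the 10 members and of 77 other chaperone genes by class, 1 point for each gene and a bar for the median. The members hold the 3 lowest points (Hspa1b, Hspa1a and Dnajb1), and the medians of all classes lie between -0.08 and 0.09.

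Cell type markers were measured in the same libraries. The defining cardiomyocyte markers (8 of 8 tested, none called) summed to 62403 to 66048 cpm in WT and 56311 to 60317 cpm in cmGch1 KO hearts, without overlap. Myh6 alone averaged 23053.5 cpm of this sum in WT libraries. Singly, each of the 8 markers overlapped between the genotypes, and 0 had an unadjusted p under 0.05 by edgeR. The log2 fold change was below 0 for 7 of them and above 0 for 1 (Actc1, 0.10). Macrophage markers (5 of 6 tested, none called, all 5 with a log2 fold change above 0 and an unadjusted p under 0.05 by edgeR) summed to 109 to 151 cpm in WT and 144 to 185 cpm in cmGch1 KO hearts. Atrial markers summed to 7.62 to 284 cpm in WT and to 45.1 to 187 cpm in cmGch1 KO hearts. Of the 6 smooth muscle and pericyte markers, 2 had a log2 fold change above 0 and 4 below 0, with a median of -0.07. Among them Acta2 was higher in cmGch1 KO hearts (log2 fold change 0.66, edgeR, adjusted p = 0.00672), a call that ended without cmGch1 KO replicates 2 and 3 (0.51, edgeR, adjusted p = 0.0506). Also higher was the immediate early gene Myc (0.90, edgeR, adjusted p = 0.0399), which lost its call without any 1 of WT replicates 2, 3, 5 and 6 or cmGch1 KO replicates 1, 3, 5 and 6, with log2 fold changes of 0.75 to 0.94, and in the 10 libraries without cmGch1 KO replicates 2 and 3 (1.03, edgeR, adjusted p = 0.0613). Among the 13 tested immediate early genes, 2 had a log2 fold change above 0 and 11 below 0, with a median of -0.30. The part of these differences in the values of the heat shock genes was not tested.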

How the data were processed

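Genotypes and replicate numbers came from the sample labels. The authors prepared stranded paired-end libraries aligned the reads with HISAT2, used Picard, counted with featureCounts, and deposited raw counts per Ensembl gene and a table of normalized values on a log2-like scale, whose tool is not given in the sources used here. The submitters' processing notes also name SAMtools and GRCm38. Symbols, coordinates and exon lengths came from GENCODE M21, in which 26582 of 26921 identifiers (98.7%) were found.

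Counts were analysed with edgeR 4.0.16 in R 4.3.3 (TMM normalization, cpm over 3 in at least 6 libraries, genotype as the only term, quasi-likelihood test, Benjamini-Hochberg adjustment over the 11225 tested genes, FDR threshold 0.05). The cpm values include the TMM factors, and log2 cpm used a prior count of 2. Exact permutation tests were two-sided and covered all 924 splits. Near-identical transcripts (at least 95% identity over at least 200 bases) were found with BLAST 2.17.0. Alternatives used DESeq2 1.42.0 and limma 3.58.1 (on the deposited log2 values). The fit was tested on simulated data.

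The named genes are the 10 members, Gch1, Xist, 4 Y-linked genes, genes of 20 lists (chaperone classes, stress, clock and cell type markers) that were called or among the 4 largest changes of their list, and the 5 genes most alike to the inducible mean and to Hspb7. Not every gene that the rule allows is named. The members and lists were chosen with earlier results of these data known.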

Additional observations from a re-analysis of the deposited data

Results flagged for a closer look

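Within each genotype, the highest and the lowest of the 6 libraries were examined for a gap to the next library that, as a share of the whole range, exceeded Dixon's 95% critical value, for the members, the sum of Hspa1a and Hspa1b, Gch1 and the named chaperone, stress and marker genes. Of 70 groups of values 2 showed such a gap, and chance alone gives it in about 1 of 20. Hspb7 was at 2877 cpm in cmGch1 KO replicate 2, with a gap of 0.649 of the range, in one of the libraries with high Xist and a low mitochondrial share. Hspb3, which encodes another small heat shock protein of muscle, was at 17.5 cpm in cmGch1 KO replicate 1, with a gap of 0.698 of the range.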

How the results depend on the processing

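All 21 alternatives left the 10 members uncalled, and the exact permutation test on log2 cpm in place of cpm also passed for 0 of 10. Hspa1a, Hspa1b, Hspa8, Hsp90ab1, Dnajb1 and Hspb7 kept their direction in all 21, and the other 4 changed sign in at least 1. Hsph1 was 0.0472 with library size alone and -0.227 to 0.112 when 1 library was left out. Hsf1 was -0.00332 with no filter, -0.0515 with sex-linked expression as a covariate, -0.0535 in the 10 libraries without high Xist and -0.0159 to 0.0545 when 1 library was left out. Hspb1 was -0.0331 with that covariate, -0.0290 in the 10 libraries and -0.0245 to 0.191 when 1 library was left out, and Hsp90aa1 was -0.0390 to 0.230 when 1 library was left out. The median of the members was 0.01 with library size alone, which put the median of all tested genes at 0.07.

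Counts over all tested genes moved more than those of the members. With library size alone 116 genes were higher and 36 lower, by the Wald test of DESeq2 218 higher and 155 lower, with the sex-linked covariate 40 higher and 24 lower, and in the 10 libraries 16 higher and 18 lower. Leaving out 1 library gave 44 to 111 higher and 28 to 96 lower. With the replicate block 112 genes were higher and 76 lower, and the lowest adjusted p of a member by edgeR was 0.0811 (Dnajb1). Replicate numbers were not taken to pair the libraries, since the labels give no such link and deviations of same-numbered libraries correlated below 0 for 3 numbers (-0.13 to -0.08). For the other 3 they correlated at 0.40 to 0.68, and 5 of 12 libraries correlated best with their own number, a hint from the data that leaves the pairing unsettled. Acta2 (0.51) and Myc (1.03) lost their calls in the 10 libraries. The cause of these shifts was not tested. Depth limits Hspa1a and Hspa1b most, since cmGch1 KO replicates 1 and 3 held 89 and 88 counts of the pair.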
